A study of Mus musculus with 10 samples.

Results

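Chemokines are small secreted proteins that guide migrating cells along concentration gradients. They act through receptors of the G protein-coupled family, which signal through inhibitory G proteins and phosphoinositide 3-kinase to turn and move the cell. In breast cancer the receptor CXCR4, which binds CXCL12, and the receptor CCR7, which binds CCL19 and CCL21, are the classic pair linked to spread into lymph nodes, because nodal stroma makes these ligands. The results cover 9 genes of this system in tumor cells from 2 sites. They are CXCR4 with its ligand CXCL12 and the related CXCL14, CCR7 with its ligands CCL19 and CCL21, and the inflammatory ligands CXCL1, CXCL8 and CXCL10.

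The members were the probe sets of the platform's annotation that carried exactly 1 of these 9 gene symbols, 18 probe sets of 61359 on the array and 9 of 19556 genes with a probe set of their own. Human breast cancer cells had been grown as xenografts in female nu/nu mice of 20 weeks that carried an estrogen pellet (E), and in the withdrawn groups (EWD) the pellet had been out for 1 week. Cells were laser-captured from frozen sections of axillary lymph node metastases, where the pellet was present in mice 6, 11 and 14 and withdrawn in mice 9, 10 and 19 (n = 3 each). Primary mammary gland tumors came from mice 11 and 14 with the pellet and from mice 10 and 19 without it (n = 2 each), so 4 of the 6 mice gave both sites. The labels name neither the cell line nor how cells were chosen for capture, and nu/nu hosts lack mature T cells but keep B, myeloid and stromal cells. The study's title concerns estrogen insensitivity of nodal metastases from estrogen receptor-positive tumors. The values are log2 signals as deposited, so a difference of 1 is a doubling of signal. The arrays carry human probe sets, so host RNA could be read by cross-hybridization only.

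Some arrays stood apart before any of the 9 genes was examined. Both estrogen-treated primary tumors had a compressed upper range, with 99th percentiles of 9.44 and 10.0, where the other 8 arrays lay between 11.4 and 11.7. Signs of RNA quality moved with the same groups. The 3′ minus 5′ signal of GAPDH was 3.15 and 3.73 in these tumors and 4.62 and 5.87 in the withdrawn ones, and that of ACTB was 4.27 and 4.49 against 6.17 and 5.91. The mean of the hybridization controls was 9.62 and 10.5 against 12.5 and 12.3, and ranged from 9.47 to 12.3 in nodes. Luminal epithelial markers were above the floor on every array, with 0 of 11 near it. KRT19, at 3.90 to 4.97, and FOXA1, at 4.08 to 7.87, came closest to it. Of these 11, 7 fell with estrogen on average over sites (limma), where 7.04% of all genes were called lower, and after quantile normalization, where 3.72% were called in either direction, the count was 5. The floor was set on each array at the 95th percentile of 113 probe sets of olfactory receptor genes, which breast cancer cells are not known to express, and lay between 3.10 and 3.73. Of 8 T cell markers 6 lay below it on all 10 arrays, among them CD3D, CD3E and CD4. So did 3 of 5 B cell markers, 4 of 9 myeloid markers, 7 of 12 fibroblast and reticular cell markers and 4 of 10 endothelial markers. Others of these lists were higher. The B cell marker CD79A had 5.19 to 6.52 in nodes and 3.73 to 4.95 in primary tumors. The myeloid marker AIF1 had 4.27 to 5.41 and 3.96 to 4.93. No B cell or myeloid marker was called in any comparison (limma). Because the samples are bulk captures, fewer cells of a type and less RNA per cell cannot be told apart.

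Of the 9 genes, 4 were near the floor with every probe set on all 10 arrays. They were CCR7, CCL19, CXCL1 and CXCL10. Each of these has a single probe set. Of all 19556 genes, each read by its brightest probe set alone, 32.1% were near the floor on all 10 arrays. CXCL12 rose above the floor on 1 array only. CCL21 was above the floor everywhere at a flat level, and CXCR4, CXCL14 and CXCL8 were the genes with large differences between arrays. CXCL1 and CXCL10 had means below the filter on low values, a log2 mean of 2.31, and were not tested. The other 7 genes were tested among 17170.

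**Figure D1:**
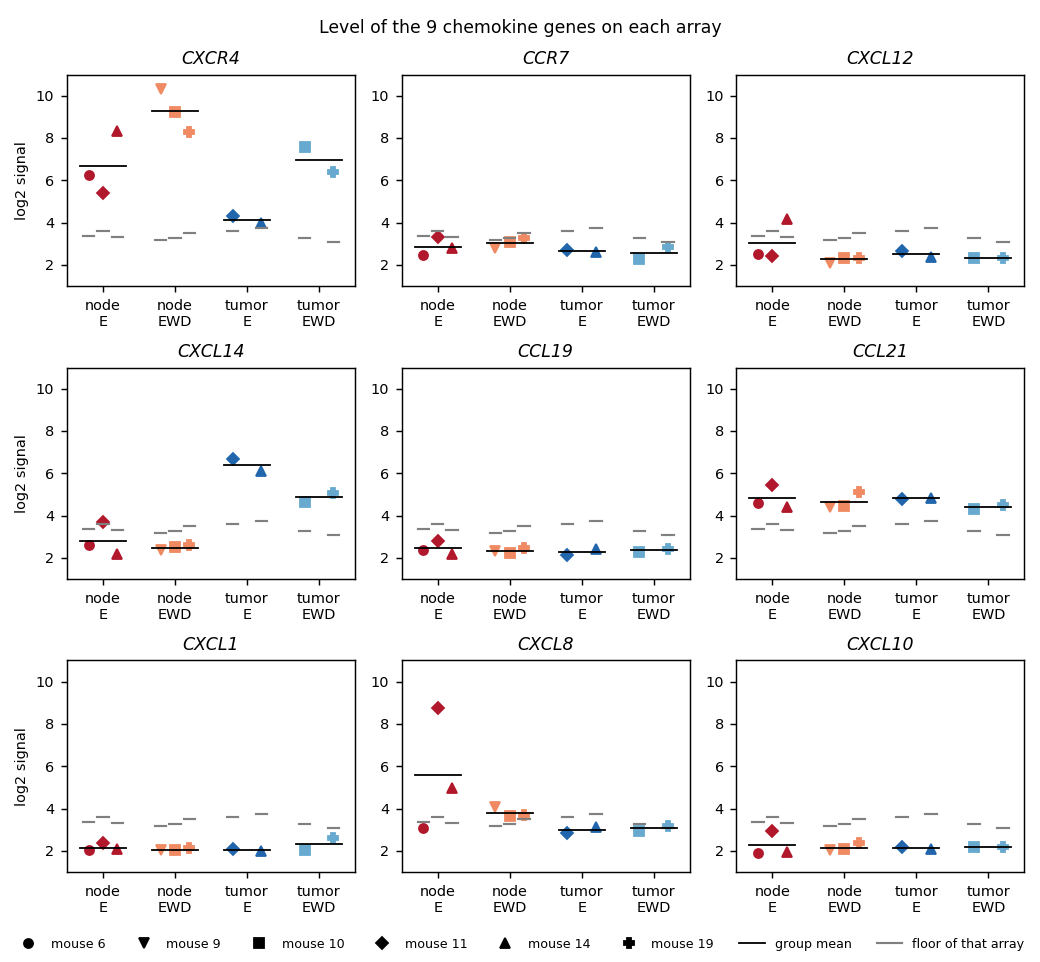
Log2 signal (vertical axis) of the probe set used for each of the 9 genes, by site and pellet state, with 1 point per array, the mouse given by the symbol, a black line at the group mean and a grey line at the floor of that array. CXCR4 ran from 3.96 to 10.3, CXCL14 was above the floor in all 4 primary tumors, CXCL8 reached 8.77 in the node of mouse 11, and CCR7, CCL19, CXCL1 and CXCL10 stayed below the floor.

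CXCR4, the receptor through which CXCL12 attracts cells, had the widest range of the 9 over the arrays and differed by both pellet state and site. In lymph nodes with estrogen its level was 6.27 in mouse 6, 5.41 in mouse 11 and 8.33 in mouse 14. After withdrawal it was 10.3 in mouse 9, 9.22 in mouse 10 and 8.28 in mouse 19. In the nodes 2 of 3 estrogen values lay below all withdrawn values, but mouse 14 was slightly above mouse 19, so the groups overlapped. In primary tumors CXCR4 stood at 4.33 in mouse 11 and 3.96 in mouse 14 with estrogen, above the floor of those arrays, and at 7.56 in mouse 10 and 6.37 in mouse 19 after withdrawal. These groups did not overlap, with estrogen the lower, as was so for 38.3% of all genes.

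The group means of CXCR4 ran in the order withdrawn nodes (9.27 ± 1.02, SD, n = 3), withdrawn primary tumors (6.97 ± 0.84, n = 2), nodes with estrogen (6.67 ± 1.50, n = 3) and primary tumors with estrogen (4.15 ± 0.26, n = 2). The middle groups overlapped and are not ordered beyond their spread. Averaged over both sites, CXCR4 fell with estrogen by 2.70 on the log2 scale (SE 0.60, 95% interval −4.06 to −1.34), and the change passed the test across all genes (limma, adjusted p = 0.0352). In that comparison 7.04% of tested genes were called lower with estrogen. Within a site the estimates were alike, −2.60 ± 0.77 (SE) in nodes (limma, adjusted p = 0.575) and −2.79 ± 0.94 in primary tumors (adjusted p = 0.104). Neither passed, and the share of all genes called lower was 0% in nodes and 6.94% in primary tumors. At an unadjusted p below 0.05 CXCR4 was the 1 of 7 tested genes in nodes, where 5.84% of all genes reached it. The difference between the responses of the 2 sites was 0.19 ± 1.24 (limma, adjusted p = 0.973, 95% interval −2.63 to 3.00), an interval too wide to show that the sites responded alike. These comparisons share arrays and are not independent of each other. The 7 luminal markers that fell with estrogen moved the same way as CXCR4, and their part in this result was not tested.

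Between sites CXCR4 was higher in lymph nodes. Within the 4 mice that gave both, the node exceeded the primary tumor by 1.08 in mouse 11 and 4.37 in mouse 14 with estrogen, and by 1.66 in mouse 10 and 1.91 in mouse 19 after withdrawal. All 4 differences pointed the same way, with a mean of 2.25 ± 1.45 (SD, n = 4). With 4 pairs no exact two-sided sign-flip p below 0.125 can be reached, so none was taken. In the fit, CXCR4 was higher in nodes by 2.42 ± 0.62 (SE) averaged over pellet states (limma, adjusted p = 0.0485), where 7.51% of genes were called higher. It was higher by 2.52 ± 0.87 with estrogen (adjusted p = 0.123) and by 2.33 ± 0.87 after withdrawal (adjusted p = 0.423), neither past the threshold. With estrogen 7.81% of all genes were called higher. In both pellet states the groups did not overlap, as was so for 28% and 20.8% of all genes in that direction. Of 11 luminal markers 7 were also called higher in nodes with estrogen and 2 on average (limma). After quantile normalization 0 were called in either, where 0.46% and 0.344% of all genes were called. Their part in the CXCR4 site difference was not tested.

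Both CXCR4 calls lay close to the threshold. Each was lost when any 1 of 7 arrays was left out, namely the nodes of mice 6, 9 and 10 or any of the 4 primary tumors, with adjusted p up to 0.156 for estrogen and 0.184 for site. After quantile normalization the estrogen difference was −2.46 (limma, adjusted p = 0.0366, 3.72% of genes called) and the site difference 2.24 (adjusted p = 0.110, 0.344% called). In primary tumors 1600 genes with a mean within 0.5 of that of CXCR4 had a median estrogen difference of −0.78. After quantile normalization that median was −0.0018 and CXCR4 was at −2.49 (limma, adjusted p = 0.122), in a comparison where 1.34% of genes were called. On the primary tumor arrays alone both CXCR4 and CXCL14 were called, as were 21.5% of all genes. With the hybridization control mean as a covariate the CXCR4 difference was −4.69 for estrogen in primary tumors (limma, adjusted p = 0.00170) and 3.10 for site with estrogen (adjusted p = 0.00267). Both were called, in fits that called 34.9% and 29% of all genes. In primary tumors the covariate did not overlap between pellet states (9.62 and 10.5 against 12.5 and 12.3). Its effect and that of estrogen cannot be told apart there. The averaged estrogen and site differences were also called with that covariate (limma, adjusted p = 0.00116 and 0.00686, with 30.5% and 19% of genes called). With mouse as a fixed effect, which uses only within-mouse differences, the site difference was 2.25 (limma, adjusted p = 0.218), and that fit called 0% of all genes.

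The CXCR4 result rested on 1 of the gene's 4 probe sets. The brightest carried all values above. The others lay between 2.24 and 3.79 over the 10 arrays and were near the floor on 7, 9 and 9 of them. All 3 had the opposite sign to the brightest for site with estrogen (−0.74, −0.55 and −0.21) and for estrogen in primary tumors (0.58, 0.23 and 0.13), and the same sign for estrogen in nodes (−0.29, −0.57 and −0.31). None of these differences was called (limma). Within mice each of these 3 probe sets was higher in the node in 1 mouse of 4 only. The mean within-mouse differences were −0.26, −0.35 and −0.16. Their suffixes (a, x and s) mark, by the manufacturer's convention, probe sets shared by transcript variants, open to cross-hybridization, or shared between transcripts. With the mean of all 4 probe sets in place of the brightest, the estrogen difference was −0.70 (limma, adjusted p = 0.0826). The average site difference was then 0.49 (limma, adjusted p = 0.219). The brightest probe set tested among all probe sets one by one gave adjusted p = 0.0680 for estrogen and 0.0908 for site (limma), where 1.6% and 2.43% of probe sets were called.

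**Figure D2:**
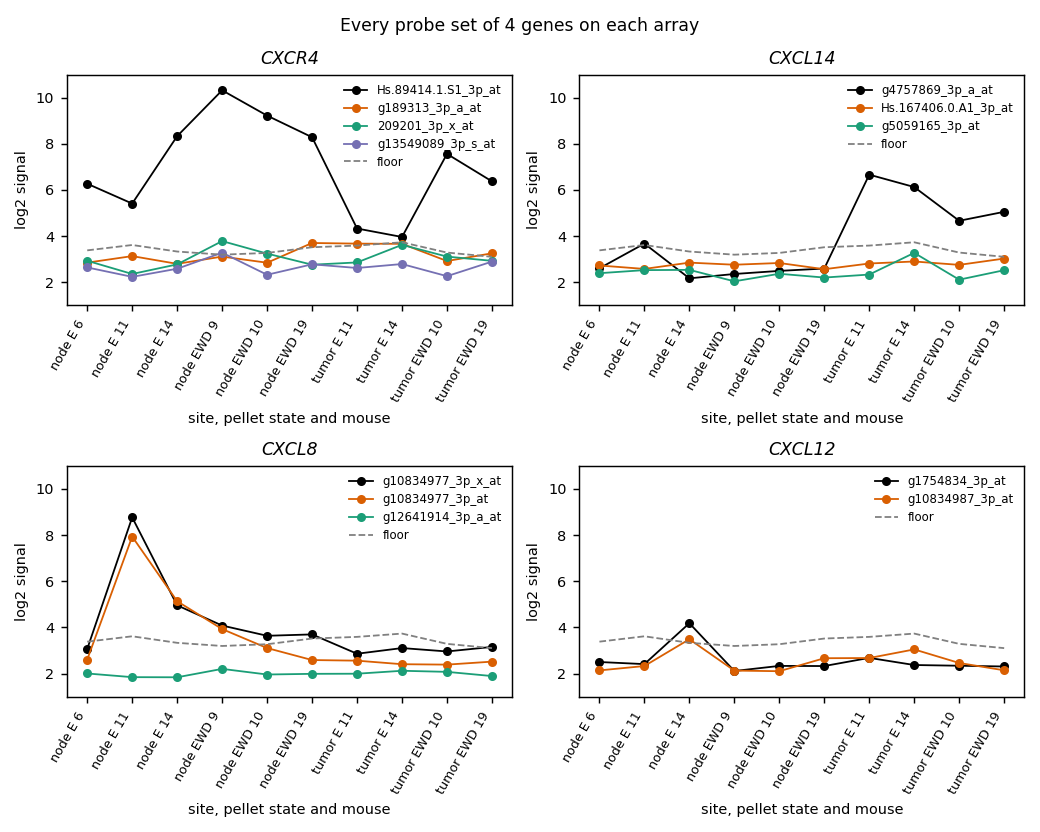
Log2 signal of every probe set of CXCR4, CXCL14, CXCL8 and CXCL12 on each of the 10 arrays (horizontal axis, site, pellet state and mouse), with the floor as a dashed line. For CXCR4 and CXCL14 1 probe set carried the signal and the rest stayed near the floor on most arrays, while for CXCL8 and CXCL12 both of a pair of probe sets rose on the same array.

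CXCL12, the ligand of CXCR4 and a known estrogen-induced gene in breast cancer cells, was near the floor on 9 of 10 arrays. Its probe set g1754834_3p_at had 2.50 in mouse 6, 2.41 in mouse 11 and 4.18 in mouse 14 among nodes with estrogen, and 2.11 to 2.33 in the withdrawn nodes. In primary tumors it had 2.68 and 2.37 with estrogen and 2.34 and 2.31 after withdrawal. The second probe set, g10834987_3p_at, was also highest in the node of mouse 14, at 3.49. The estrogen difference was 0.77 ± 0.43 (SE) in nodes (limma, adjusted p = 0.914) and 0.21 ± 0.52 in primary tumors (adjusted p = 0.847). The groups did not overlap in either site, as was so for 4.47% and 22.6% of all genes in that direction. Apart from that 1 node, CXCL12 signal could not be told from background.

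CXCL12 has another receptor, ACKR3, an atypical receptor that takes up the ligand without G protein signalling, and it moved with CXCR4 on pellet state. In nodes ACKR3 was 4.79, 4.30 and 5.80 with estrogen (mice 6, 11 and 14) and 8.29, 6.69 and 6.77 once it was withdrawn (mice 9, 10 and 19). In primary tumors it was 6.30 and 5.81 with estrogen (mice 11 and 14) and 8.33 and 8.58 once it was withdrawn (mice 10 and 19). Estrogen values lay below withdrawn values in both sites, without overlap, as was so for 5.46% of all genes in nodes and 38.3% in primary tumors. Averaged over sites ACKR3 fell with estrogen by 2.33 (SE 0.39, limma, adjusted p = 0.0173), with all 3 of its probe sets in that direction. It was still called after quantile normalization (−1.84, limma, adjusted p = 0.0263). It was not called without the primary tumor of mouse 11, 14 or 19, with adjusted p up to 0.0889. By site the differences were −2.29 ± 0.50 in nodes (limma, adjusted p = 0.304) and −2.38 ± 0.61 in primary tumors (adjusted p = 0.0501). Unlike CXCR4, ACKR3 was not higher in nodes, with a site difference of −1.14 (limma, adjusted p = 0.124) on average.

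CXCL14, a ligand made by normal epithelium and reported to bind CXCR4, had the clearest site difference of the 9 genes. Its probe set g4757869_3p_a_at had 6.66 in mouse 11 and 6.13 in mouse 14 in primary tumors with estrogen, and 4.66 in mouse 10 and 5.05 in mouse 19 after withdrawal. In nodes it had 2.61, 3.68 and 2.17 with estrogen (mice 6, 11 and 14) and 2.36, 2.49 and 2.60 once it was withdrawn (mice 9, 10 and 19). All 4 primary tumors were above the floor, and 5 of the 6 nodes were below it, with mouse 11 just above.

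Within mice the node lay below the primary tumor by 2.17, 2.99, 3.96 and 2.46 in mice 10, 11, 14 and 19, so that the mean difference was −2.89 ± 0.78 (SD, n = 4). CXCL14 was lower in nodes with estrogen, where the fitted difference was −3.58 ± 0.42 (SE, limma, adjusted p = 0.00572) and 0.949% of genes were called lower. On average over pellet states it was −2.98 ± 0.30 (limma, adjusted p = 0.00485), where 0.641% were called lower. The sites did not overlap in either pellet state, as was so for 9.98% of genes with estrogen and 10.2% after withdrawal in that direction. After withdrawal alone the difference was −2.38 ± 0.42 (adjusted p = 0.146) in a comparison in which limma called 0% of genes and 10% had an unadjusted p below 0.05, CXCL14 and CXCR4 among them. As nodes sat at the floor, the sizes rest on background there. With the floor in place of node values below it, the difference was at least 2.93 with estrogen, where 2 of 3 nodes were below it, and at least 1.53 after withdrawal, where all 3 were.

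Both CXCL14 calls held when each of the 10 arrays was left out in turn, with adjusted p between 0.000932 and 0.0444. Quantile normalization gave −4.19 with estrogen (limma, adjusted p = 0.00464, 0.46% of genes called) and −3.29 on average (adjusted p = 0.00622). The compressed arrays are the ones with the highest CXCL14, and 2401 genes of like mean level had a median difference of 0.11 with estrogen. That match was to the mean of CXCL14 over all arrays, 3.84, which is near the floor. It was not to the 6.66 and 6.13 of CXCL14 on the compressed arrays, and the part of compression was not tested. The fit with mouse as a fixed effect, which called 0% of genes, gave −3.47 and −2.89 (limma, adjusted p = 0.149 and 0.199). The fit on the estrogen groups alone gave −3.59 (adjusted p = 0.0854) and also called 0% of genes.

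In primary tumors CXCL14 was higher with estrogen, 6.39 ± 0.38 (SD, n = 2) against 4.86 ± 0.27 (n = 2), but the difference of 1.54 ± 0.46 (SE) did not pass the test (limma, adjusted p = 0.0742), where 0.879% of genes were called higher. At an unadjusted p below 0.05 it was 1 of 2 members in primary tumors, with CXCR4, against 26% of all genes. In nodes the difference was 0.33 ± 0.37 (adjusted p = 0.951), and the difference of the responses was −1.20 ± 0.60 (adjusted p = 0.525). The hybridization covariate did not overlap between pellet states in primary tumors. With it CXCL14 was called in primary tumors (2.02, limma, adjusted p = 0.0115), for averaged estrogen (1.16, adjusted p = 0.0188) and for site after withdrawal (−2.00, adjusted p = 0.0167, 13.3% of genes called). Without the node of mouse 11 CXCL14 was called in both the primary tumor comparison (limma, adjusted p = 0.00723) and the difference of responses.

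The other 2 probe sets of CXCL14 lay between 2.04 and 3.28 and were near the floor on all 10 arrays. The mean of all 3 probe sets still gave a call for site, −1.12 on average (limma, adjusted p = 0.00768). Fibroblast markers were compared beside it, since stromal cells can also make CXCL14. Their summed level over 12 genes was 41.3 to 46.6 in primary tumors and 40.8 to 45.3 in nodes. COL1A2, DCN, LUM, PDGFRB, FAP, PDPN and VIM were near the floor on all arrays. COL1A1, ACTA2 and THY1 were above it on all arrays. They had 6.33 to 7.30, 5.01 to 8.79 and 4.93 to 5.74 in primary tumors. In nodes they had 6.71 to 7.54, 6.04 to 8.92 and 5.19 to 6.28. COL3A1, a fibrillar collagen, was 4.25 to 5.23 in primary tumors and 2.43 to 4.27 in nodes, and was lower in nodes by 1.72 (SE 0.33, limma, adjusted p = 0.0207). After quantile normalization its adjusted p was 0.0566 (limma), and it was called in 4 of 10 fits that left out 1 array. Its part in the CXCL14 difference was not tested.

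**Figure D3:**
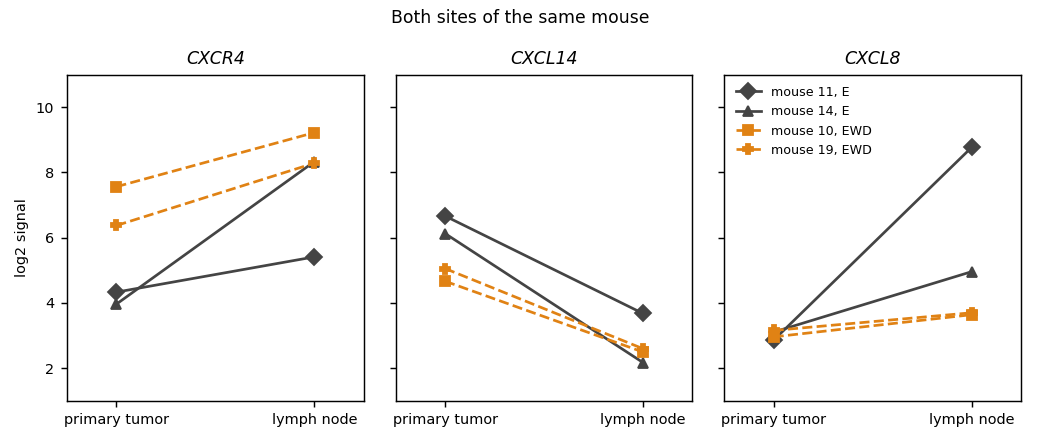
Log2 signal of the brightest probe set of CXCR4, CXCL14 and CXCL8 in the primary tumor and the lymph node of the same mouse. Mice 11 and 14 had estrogen (solid), and mice 10 and 19 were withdrawn (dashed). In all 4 mice CXCR4 and CXCL8 were higher and CXCL14 lower in the node, but CXCL8 in the primary tumors of mice 10, 11 and 14 and CXCL14 in the nodes of mice 10, 14 and 19 lay below the floor of their arrays.

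CCR7 and its ligands CCL19 and CCL21 showed no difference past the test in any of the 7 comparisons, except that CCL21 was called under 1 alternative. CCR7, the receptor that brings lymphocytes and dendritic cells into nodes, had its single probe set between 2.29 and 3.30, below the floor on every array. Its node values exceeded those of the primary tumor of the same mouse by 0.79, 0.57, 0.15 and 0.43 in mice 10, 11, 14 and 19. All of these values lie near the floor, and the fitted site difference was 0.32 ± 0.22 (SE, limma, adjusted p = 0.431). Signal of CCL19 lay between 2.15 and 2.80, and its site difference was 0.08 ± 0.17 (adjusted p = 0.841).

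CCL21 had 4.61, 5.45 and 4.41 in nodes with estrogen (mice 6, 11 and 14), 4.38, 4.47 and 5.10 in withdrawn nodes (mice 9, 10 and 19), 4.80 and 4.83 in estrogen-treated primary tumors and 4.32 and 4.49 in withdrawn ones. The nodes overlapped between pellet states and with the tumors, the estrogen-treated tumors lay above the withdrawn ones as for 22.6% of all genes, and group means were 4.40 to 4.82. The site difference was 0.12 ± 0.25 (SE, limma, adjusted p = 0.830) and the estrogen difference 0.29 ± 0.24 (adjusted p = 0.474). In primary tumors it was 0.41 ± 0.38 (adjusted p = 0.547). The hybridization covariate did not overlap between pellet states in primary tumors. With it CCL21 was called for estrogen in primary tumors (1.10, limma, adjusted p = 0.0191) and averaged over sites (0.62, adjusted p = 0.0333). Its second probe set lay between 3.80 and 4.76. CCL21 is made by stromal and lymphatic endothelial cells of nodes. Of the markers of such cells LYVE1, PROX1 and PDPN were near the floor on all 10 arrays. FLT4 was 4.20 to 5.98 in nodes and 4.11 to 4.65 in primary tumors. Among endothelial markers in general, TEK was above the floor on all arrays and EMCN on 9. Their part in the CCL21 signal was not tested.

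CXCL8, a neutrophil-attracting ligand induced by NF-kB, was by far highest in 1 node, that of mouse 11. Probe set g10834977_3p_x_at had 3.07, 8.77 and 4.96 in nodes with estrogen (mice 6, 11 and 14), 4.08, 3.64 and 3.70 in withdrawn nodes (mice 9, 10 and 19), 2.86 and 3.11 in estrogen-treated primary tumors and 2.96 and 3.16 in withdrawn ones. A second probe set, g10834977_3p_at, gave 7.93 and 5.13 in the nodes of mice 11 and 14 and 2.39 to 3.93 on the other arrays. The third, g12641914_3p_a_at, stayed between 1.84 and 2.20 on all arrays.

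In each of the 4 mice with both sites the CXCL8 signal of the node exceeded that of the primary tumor. This was read from the brightest probe set, whose x suffix marks it as open to cross-hybridization. The tumors of mice 10, 11 and 14 were below the floor of their arrays, so the differences there were at least 0.35, 5.18 and 1.22, taken from the floor, and 0.54 in mouse 19. On the measured signals the mean was 2.24 ± 2.51 (SD, n = 4). The spread exceeded the mean, and the fitted site difference of 1.66 ± 0.93 (SE) did not pass (limma, adjusted p = 0.330). Withdrawn nodes all lay above withdrawn primary tumors, as did 20.8% of all genes. Nor did estrogen give a call, at 1.79 ± 1.15 in nodes (adjusted p = 0.927). On the second probe set the node exceeded the tumor by 0.72, 5.37, 2.73 and 0.069 in mice 10, 11, 14 and 19. With it the nodes of mice 10 and 19, at 3.11 and 2.59, were below their floors of 3.27 and 3.52. Only mice 11 and 14 thus had node signal above background on both probe sets. The third probe set had a mean within-mouse difference of −0.11.

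Several inflammatory genes were highest in the same node of mouse 11, the array with the highest CXCL8. The mean level of 14 NF-kB target genes was 5.28 there and 4.39 to 4.93 on the other arrays, and TNFAIP3, a feedback inhibitor of NF-kB, was 5.15 against 2.01 to 3.78. Interferon-stimulated genes had a mean of 7.92 against 4.65 to 7.85. Markers of myeloid cells had a mean of 3.46 over 9 genes against 2.66 to 3.18, with ITGAM at 5.06 against 2.05 to 3.28 and CD14 at 4.33 against 2.59 to 3.02. CSF1R, LYZ, TYROBP and CD163 were near the floor on all arrays. Other genes of these lists were highest in a primary tumor. They included NFKBIA (up to 9.32 in primary tumors and 9.00 in nodes), NFKB1 (5.08 and 4.79) and NFKB2 (6.10 and 6.05). So were SOD2 (6.61 and 5.83), LTB (5.20 and 4.44), LAMP3 (6.57 and 5.41), IFI44 (9.70 and 6.62) and IFIH1 (11.4 and 10.6). TNFAIP3, ITGAM and CD14 were chosen after their values were seen, and their part in the CXCL8 value was not tested. CXCL10, a ligand induced by interferon, was also highest there, but at 2.95 it lay below the floor of 3.62, and the other 9 arrays had 1.91 to 2.36. CXCL1, a neutrophil attractant close in sequence to other CXC ligands, ranged from 1.99 to 2.62.

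**Figure D4:**
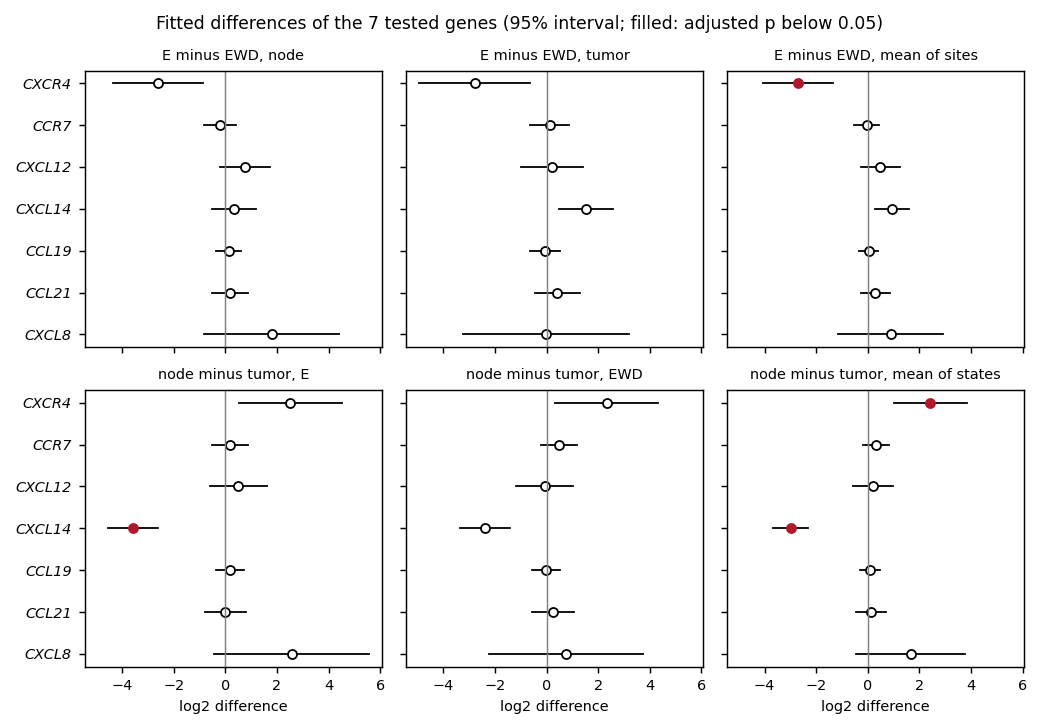
Fitted log2 difference (horizontal axis) with its 95% interval for the 7 tested genes in 6 comparisons; filled points passed adjusted p below 0.05 over all 17170 genes. CXCR4 passed in both averaged comparisons and CXCL14 in nodes against primary tumors with estrogen and on average.

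Among the 7 tested genes the count past the threshold was thus 0 for estrogen in nodes, 0 for estrogen in primary tumors and 1 for the average of the 2, where the share of all genes called in either direction was 0%, 7.82% and 8.01%. It was 1 for site with estrogen, 0 after withdrawal and 2 on average, against 8.76%, 0% and 8.15% of all genes. The difference of responses gave 0, against 0.0116%, and 0 also at an unadjusted p below 0.05, which 10.8% of all genes reached. In averaged estrogen 0.978% of genes were called higher. The median of the 7 differences was 0.17 for estrogen in nodes and 0.12 in primary tumors, against −0.02 and −0.10 over all genes. For site it was 0.18 with estrogen and 0.24 after withdrawal, against 0.26 and 0.07.

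Much of the rest of the chemokine system lay near the floor, as did 32.1% of all genes. Of 11 other CXC ligands 8 were near the floor on all arrays, among them CXCL2, CXCL3 and CXCL9, and so were 12 of 21 CC and other ligands and 10 of 14 other chemokine receptors. No CXC ligand or chemokine receptor of these lists was called in any of the 7 comparisons, of 6 and 9 tested, where 0% to 8.76% of all genes were called. CXCL16, a membrane-bound ligand made by many tumor cells, was well above the floor in nodes, at 5.05 to 6.64, with 3.42 to 5.31 in primary tumors. Its site difference with estrogen was 1.13 (limma, adjusted p = 0.328). CXCR3, the receptor of CXCL10, had 3.44 to 4.45 in nodes and 2.84 to 4.65 in primary tumors, and its estrogen difference in primary tumors was 1.36 (limma, adjusted p = 0.0616). CCL15, a ligand of CCR1 and CCR3, was uneven among nodes, from 2.84 to 7.31.

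CX3CL1, a membrane-anchored ligand that attracts lymphocytes and monocytes, was the 1 of 17 tested CC and other ligands that was called, and its pattern resembled that of CXCL14. It had 5.89 and 6.06 in primary tumors with estrogen (mice 11 and 14), 4.77 and 4.73 once it was withdrawn (mice 10 and 19), and 2.58 to 3.69 over the 6 nodes. CX3CL1 was lower in nodes by 3.00 with estrogen (SE 0.35, limma, adjusted p = 0.00572) and by 2.35 on average (SE 0.25, adjusted p = 0.00485). In these comparisons 0.949% and 0.641% of all genes were called lower. All 3 nodes with estrogen lay below the floor, which makes the first difference at least 2.53 when taken from it, and so did 2 of 3 withdrawn nodes. Both calls held whichever array was left out and after quantile normalization. With mouse as a fixed effect the differences were −2.79 and −2.17 (limma, adjusted p = 0.149 and 0.199), and on the estrogen groups alone −3.02 (adjusted p = 0.0854), in fits that called 0% of all genes. The gene has a single probe set.

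ACKR4, an atypical receptor that removes CCL19 and CCL21, was above the floor only in the estrogen-treated primary tumors, at 6.41 in mouse 11 and 4.06 in mouse 14, with 2.08 to 2.70 elsewhere. It was higher with estrogen in primary tumors by 2.76 (SE 0.64, limma, adjusted p = 0.0368) and lower in nodes than in primary tumors with estrogen by 2.99 (SE 0.60, adjusted p = 0.0186). Without the primary tumor of mouse 11 the estrogen difference was 1.61 and the site difference −1.83, neither called. After quantile normalization they were 3.14 and −3.36 (limma, adjusted p = 0.0737 and 0.0898). Taken from the floor, the differences were at least 2.04 and 1.79. The site call was also lost without the node of mouse 6, and the estrogen call without that node, the nodes of mice 9 and 10 or either withdrawn primary tumor. DPP4, a peptidase that inactivates CXCL12 by clipping its end, was 3.34 to 7.15 in nodes and 2.79 to 3.53 in primary tumors, with no call in any comparison.

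Of 23 tested genes of receptor signalling, 8 were higher in nodes on average and 0 lower, among them the arrestin ARRB1 (2.02, limma, adjusted p = 0.0405), the receptor kinases GRK3 (1.08, adjusted p = 0.0326), GRK5 (0.71, adjusted p = 0.0477) and GRK6 (1.55, adjusted p = 0.0494), and the GTPases RAC1 and CDC42. The share of all genes called higher was 7.51%. With estrogen 5 were higher in nodes and 0 lower, where 7.81% of all genes were called higher. In primary tumors 3 fell with estrogen and 0 rose, namely the G protein subunit GNB1 (−1.74), RAC1 (−1.43) and CDC42 (−1.45). There 6.94% of all genes were called lower. None of the 23 was called in these comparisons after quantile normalization (limma), and RAC1 then turned to 0.40 for estrogen in primary tumors. All 8 averaged calls were lost without the node of mouse 10, and also without the primary tumor of mouse 19. The 5 calls with estrogen and the 3 in primary tumors were all lost without the primary tumor of mouse 11. Other arrays ended calls of some genes only, and ARRB1, for one, was called in 3 of 10 fits that left out 1 array. Of 13 tested NF-kB target genes only BCL3 was called. On average it was higher in nodes (0.98, limma, adjusted p = 0.0202), where 7.51% of all genes were called higher. It was lower with estrogen (−0.74, limma, adjusted p = 0.0437), where 7.04% were called lower. Of 17 interferon-stimulated genes only TAP1 was called in primary tumors, lower with estrogen (−3.16, limma, adjusted p = 0.0206), where 6.94% of all genes were called lower. After quantile normalization TAP1 had −1.41 (limma, adjusted p = 0.126). The BCL3 values were then 0.69 and −0.49 (adjusted p = 0.274 and 0.259). Of 10 fits that left out 1 array, BCL3 was called in 4 for site and 2 for estrogen, and TAP1 in 6. The leukocyte-restricted DOCK2, PIK3CG and ELMO1 were near the floor on all arrays.

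**Figure D5:**
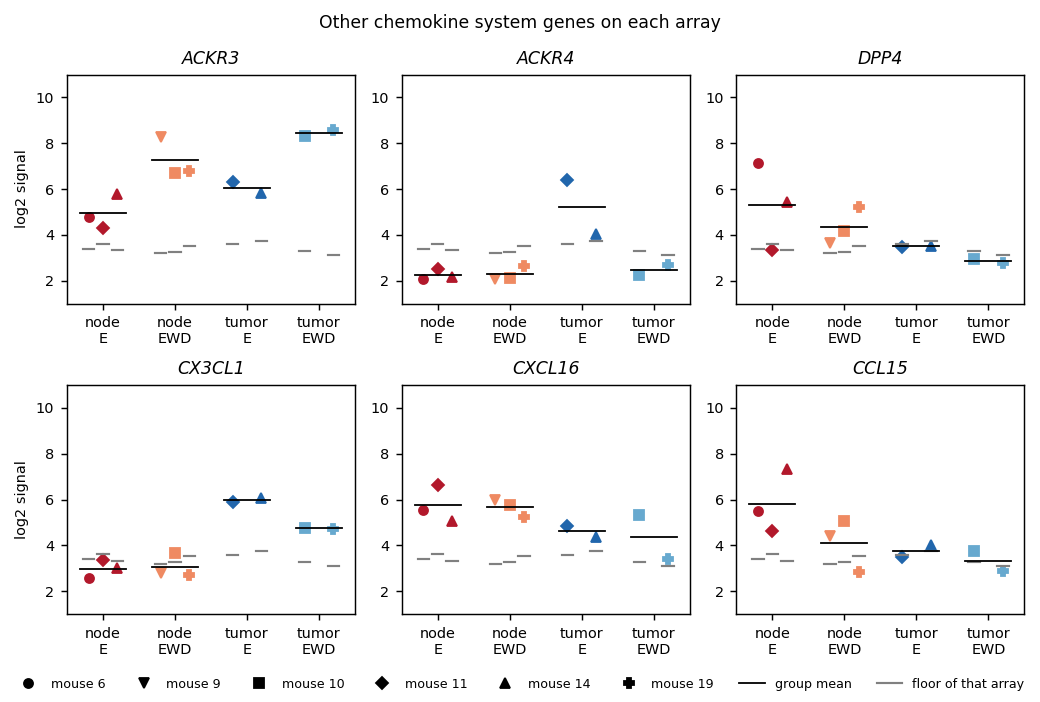
Log2 signal of 6 other genes of the chemokine system by site and pellet state, drawn as for the 9 genes, with a black line at the group mean and a grey line at the floor of that array. ACKR3 was lower with estrogen in both sites, CX3CL1 stood above the floor in all 4 primary tumors, and ACKR4 did so in 2.

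The genes most like each variable member were found by Pearson correlation over the 10 arrays, which come from 6 mice and share the compressed range. The closest to CXCR4 were SGPL1, a sphingosine phosphate lyase, CLSTN1 and SEC24A, a coat protein of secretory vesicles, each at r = 0.97. After quantile normalization these were 0.86, 0.84 and 0.96. For CXCL14 they were LINC02204 (r = 0.96), PDE3A (0.96) and CX3CL1 (0.95), of which CX3CL1 alone had a wide range. LINC02204 spanned 2.19 to 2.83 and PDE3A 2.27 to 3.24, near the floor. For CXCL12 they were CCNA1, ADGRE2 and SULF1 (0.98, 0.95 and 0.94), all resting on the node of mouse 14. For CXCL8 they were ZBTB32, FLRT2 and H1-10-AS1 (0.98, 0.96 and 0.95), all highest in the node of mouse 11 and below its floor.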

How the data were processed

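Values were the authors' deposited log2 signals, 1 per probe set and array, for 10 arrays. Partek and RMA are named in the submitters' processing notes, without versions, and per the labels' protocols RNA of laser-captured cells was amplified by PCR before labelling, which adds noise and favors 3′ ends. The number of arrays limits precision. Of 61359 probe sets, 44532 had 1 gene symbol in the platform's annotation, 1492 several and 15273 none here, and 62 were controls. Each gene was its brightest probe set on average, and genes whose mean lay under the 25th percentile over probe sets were left out. Tests used limma 3.58.1 in R 4.3.3 with 4 group means and mouse as a random block (correlation −0.0415), Benjamini-Hochberg over 17170 genes, called at an adjusted p below 0.05, and were tested on simulated data. Mouse numbers pair both sites of 1 animal, per the labels. Deviations from group means correlated at 0.176, −0.208, −0.210 and 0.0831 in mice 10, 11, 14 and 19. The members and lists were chosen with earlier results of these data known. The named genes were the 9 members, list genes that were called, the 2 highest absolute t per chemokine list and comparison, and the 3 most correlated genes for each member spanning 2 log2 units. Luminal markers, and list genes without a call near the floor, are given as counts, and exceptions are said beside them. Alternatives covered normalization, filter, probe set, block, samples, hybridization controls, floor and each array left out. No human sequence was used.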

Additional observations from a re-analysis of the deposited data

How the results depend on the processing

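For the brightest probe set, or the mean of all probe sets, the direction of CXCL14 between sites was kept under every alternative run. So was that of CXCR4 between sites and for estrogen averaged over sites. Testing probe sets singly read out the brightest only, so it could not show a turn of sign in another. The other CXCR4 probe sets had averaged site differences of −0.31, −0.14 and 0.0079 and averaged estrogen differences of 0.14, −0.17 and −0.087. The count of the 7 genes called (or of 9 with no filter) changed as follows, and the cause was not tested unless fewer arrays or more tests enter by construction. With the hybridization control mean as a covariate it was 3 for estrogen in primary tumors, 2 for site with estrogen, 1 for site after withdrawal and 3 for averaged estrogen. Within the groups compared alone it was 2 for estrogen in primary tumors and 0 for site with estrogen. For averaged site it was 1 after quantile normalization, with no filter, with the mean of all probe sets and with probe sets tested singly, and 0 with the replicate block as a fixed effect of mouse, which also gave 0 for site with estrogen. For averaged estrogen it was 0 with the mean of all probe sets and with probe sets tested singly. Without the replicate block no count changed. Leaving out each array gave 0 to 2 for estrogen in primary tumors and for averaged estrogen, 0 to 1 for the difference of responses and for site after withdrawal, and 1 to 2 for site with estrogen and averaged site. Estrogen differences could not be fitted with a fixed effect of mouse, and the averaged comparisons use all groups, so no narrower fit exists. Of the genes, 4 were near the floor at a fixed log2 value of 4 and 3 at the 90th percentile of the olfactory receptor probe sets.

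For the brightest probe set of each gene, or the mean of its probe sets, signs turned only for differences that were not called, apart from RAC1. With the hybridization covariate these were CXCL12 (−0.41), CCL19 (0.24) and CXCL8 (1.05) for estrogen in primary tumors, CCR7 for averaged estrogen (0.092), CCL19 for the difference of responses (−0.13) and for site after withdrawal (0.22), and CCL21 for site with estrogen (−0.18). After quantile normalization they were CCL21 for site with estrogen (−0.30) and averaged site (−0.10), CCL19 for site after withdrawal (0.0078), and RAC1 for estrogen in primary tumors (0.40), site with estrogen (−0.049) and averaged estrogen (0.15). CXCL8 for estrogen in primary tumors was 0.059 with the mean of all probe sets and 0.000086 with probe sets singly, CXCR4 for the difference of responses −0.48 with the mean of all probe sets, CCL21 for site with estrogen −0.0089 within those groups, and CXCL12 for site after withdrawal 0.0060 with a fixed effect of mouse. Leaving out arrays turned signs in these ranges. For estrogen in nodes they were CXCL14 −0.091 to 0.66, CCL19 −0.041 to 0.26 and CCL21 −0.14 to 0.40. In primary tumors they were CXCL12 −0.10 to 0.45, CCR7 −0.15 to 0.41, CCL19 −0.25 to 0.092 and CXCL8 −0.66 to 0.24, and averaged CCR7 −0.18 to 0.10 and CCL19 −0.058 to 0.11. For the difference of responses CXCL12 had −0.0063 to 0.89 and CXCR4 −0.61 to 0.88. For site with estrogen CXCL12 had −0.072 to 0.83, CCR7 −0.058 to 0.36 and CCL21 −0.31 to 0.22. After withdrawal CXCL12 had −0.11 to 0.0060 and CCL19 −0.13 to 0.083. Averaged, CXCL12 had −0.069 to 0.38, CCL19 −0.0064 to 0.17 and CCL21 −0.029 to 0.23.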
